A study of Mus musculus with 8 samples.

Results

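The genes described here are 9 small nucleolar RNA host genes that make no protein (Snhg1, Snhg3, Snhg4, Snhg5, Snhg6, Snhg8, Snhg9, Snhg12 and Gas5) and Terc, the RNA component of telomerase. They were chosen by symbol, with their genotype differences in these data already known, the low values of Snhg9 and Terc in E17.5 mutant tissue included. The 10 symbols are among 22725 symbols present in the tables of all 8 libraries, each has a row of its own in every table, and none is part of a comma-joined symbol. The measurement was RNA-seq of hypothalamus dissected from mouse embryos, in tissue labelled Foxd1-mutant or Wild-type. Foxd1 is a forkhead transcription factor gene, and the series asks what its loss does to neurons of the anterior hypothalamus. The groups were Foxd1-mutant and wild-type with 1 library each at E12.0, the same at E12.5, and Foxd1-mutant and wild-type with 2 libraries each at E17.5.

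The allele, the strain and the number of embryos in each pool are not given in the sources used here. The submitters counted 8 Foxd1-null and 10 control embryos over the whole study and pooled RNA before making libraries. Their account of the controls can be read as either genotype, so the genotype of each library was taken from its source name. Their account of the dissection names E12.5 and E17.5 alone, and nothing more is said of the tissue labelled E12.0. Foxd1 itself was at 2.77 FPKM (fragments per kilobase of transcript, scaled to library size) in the mutant and 24.95 FPKM in the wild-type library at E12.0, then 2.497 in the mutant and 30.3 FPKM in the wild-type library of E12.5. At E17.5 it was at 0.396 and 0.230 FPKM in mutant libraries and at 3.90 and 1.96 FPKM in wild-type libraries, so all 8 libraries lay on the side their label gives. Between 11572 and 13219 genes reached 1 FPKM in a library. Depth, estimated from the steps between low FPKM values, was 40.2 and 30.5 M fragments in mutant and 34.7 and 43.1 M in wild-type libraries at E17.5. The early estimates were 16.5 M in the mutant and 3.95 M in the wild-type library at E12.0, and 12.3 and 57.4 M at E12.5. They are weak and should not be relied on. Only 31.7% to 41.6% of low early values came to a whole number of fragments within 0.1, against 79.4% to 81.6% at E17.5. No counts come with the FPKM values, so no counting interval is given.

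A small nucleolar RNA host gene is transcribed as a long RNA whose introns are trimmed to small nucleolar RNAs (snoRNAs), short guides that direct chemical modification or processing of ribosomal and other RNAs. The spliced exons are left over as a noncoding RNA, and for several of these genes, Gas5 and Snhg1 among them, that RNA is translated briefly and then broken down by nonsense-mediated decay. Host genes of this kind are transcribed along with ribosomal protein genes in growing cells. Terc is not a host gene: it carries the template from which telomerase, with the reverse transcriptase Tert, adds telomere repeats, and it ends in a domain of the H/ACA type that binds the same core proteins as H/ACA snoRNAs. Telomerase activity is known to be high in early embryonic and dividing cells and to fall as tissues differentiate.

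Terc and Snhg9, the 2 members with the widest E17.5 differences, are also short, and RNA sequence of both is given for that reason, from a GENCODE mouse annotation of GRCm38. Terc lies on the minus strand of chromosome 3 as a single transcript of 423 bases there, against 397 in RefSeq. The first 240 bases of the GENCODE entry are shown, with the template letters in capitals. Because the RefSeq entry is shorter, the RNA may begin later than the first base printed.
Terc RNA: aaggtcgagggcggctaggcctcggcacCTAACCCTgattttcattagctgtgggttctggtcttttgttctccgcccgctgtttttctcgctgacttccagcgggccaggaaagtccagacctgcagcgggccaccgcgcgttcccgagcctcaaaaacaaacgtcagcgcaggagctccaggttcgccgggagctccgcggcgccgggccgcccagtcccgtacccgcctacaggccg
Snhg9 lies on the minus strand of chromosome 17, where its spliced RNA has 183 bases. No stretch of it is singled out here, so all of it is in lower case.
Snhg9 RNA: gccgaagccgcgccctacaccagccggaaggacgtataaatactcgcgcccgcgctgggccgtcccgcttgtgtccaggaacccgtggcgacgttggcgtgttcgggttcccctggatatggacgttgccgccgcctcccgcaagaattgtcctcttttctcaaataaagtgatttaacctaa
Snora78, the H/ACA snoRNA inside the Snhg9 gene, has 128 bases. The capitals mark the ACA that stands 3 bases before the end and gives its class its name.
Snora78 RNA: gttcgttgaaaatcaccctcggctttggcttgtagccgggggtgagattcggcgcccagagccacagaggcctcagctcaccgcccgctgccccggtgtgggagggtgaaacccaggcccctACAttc
An RNA as short as spliced Snhg9 is close to the 170 base fragment length used for the depth estimate, so no number of fragments was worked out for it.

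At E17.5 Snhg9, the host of Snora78, had 4.02 and 5.72 FPKM in mutant libraries, against 12.4 and 11.3 FPKM in wild-type libraries. Both mutant values were below both wild-type values, and the genotypes did not overlap. The means were 4.87 ± 1.20 FPKM in mutant and 11.9 ± 0.766 FPKM in wild-type tissue (SD, n = 2 each), a ratio of 0.410. On the log2(FPKM + 1) scale the difference, mutant minus wild-type, was -1.15 with a standard error of 0.144. Of the 13235 genes that averaged 1 FPKM or more at that stage, 0.204% had a larger difference in either direction. Because Snhg9 was chosen with this value known, it is given as a description, with no p of its own, as are all genotype differences of the members.

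Terc had 15.0 and 8.72 FPKM in mutant libraries at E17.5, against 21.3 and 21.9 FPKM in wild-type libraries. The genotypes again did not overlap, but the mutant libraries stood far apart, with replicate 2 the lower. The means were 11.8 ± 4.42 FPKM in mutant and 21.6 ± 0.444 FPKM in wild-type tissue (SD, n = 2 each), a ratio of 0.548. The log2 difference was -0.86 with a standard error of 0.221, and 0.295% of the genes tested had a larger one. It was -1.22 without mutant replicate 1 and -0.50 without mutant replicate 2, so its size rests on which mutant library is used. The depth estimate puts these values at about 137 and 60 Terc fragments in mutant and 168 and 215 in wild-type libraries. In whole tissue, fewer cells holding an RNA and less of it per cell cannot be told apart.

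The small RNA share and the telencephalon and proliferation sums also set mutant replicate 2 apart from the other E17.5 libraries. Further marker sets are given beside them. Small RNA genes took 14.6% and 9.77% of all FPKM in mutant libraries and 14.002% and 13.8% in wild-type libraries at E17.5. The summed level of 9 hypothalamus marker genes, regulators such as Nkx2-1, Otp and Sim1, was 57.2 and 48.2 FPKM in mutant and 78.8 and 70.1 FPKM in wild-type libraries. All 9 had a lower mean in mutant tissue. A set of 6 telencephalon markers, such as Tbr1 and Eomes, summed to 27.7 and 64.9 FPKM in mutant and to 23.6 and 24.4 FPKM in wild-type libraries, and all 6 had a higher mean in mutant tissue. The 10 proliferation markers, such as Mki67 and Top2a, summed to 119 and 142.5 FPKM in mutant and to 119 and 114 FPKM in wild-type libraries. All 10 had a higher mean in mutant tissue (median log2 difference 0.17). Of 5 meninges and mesenchyme markers 4 had a higher mean in mutant tissue (median log2 difference 0.37). Among them Dcn had 30.1 and 29.3 FPKM in mutant and 22.6 and 13.4 FPKM in wild-type libraries. The sums of this list overlapped, at 234 and 163 FPKM in mutant and 213 and 130.5 FPKM in wild-type libraries. Endothelium markers were higher in 4 of 5 (median 0.13), red blood cell markers in 3 of 4 (0.07) and pan-neuronal markers in 5 of 8 (0.04). No gene of these sets was at 0 in every library. The part of these values in the differences of Terc and Snhg9 was not tested. Snhg9 was lower in mutant replicate 1 than in mutant replicate 2, the other way round from Terc.

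**Figure D1:**
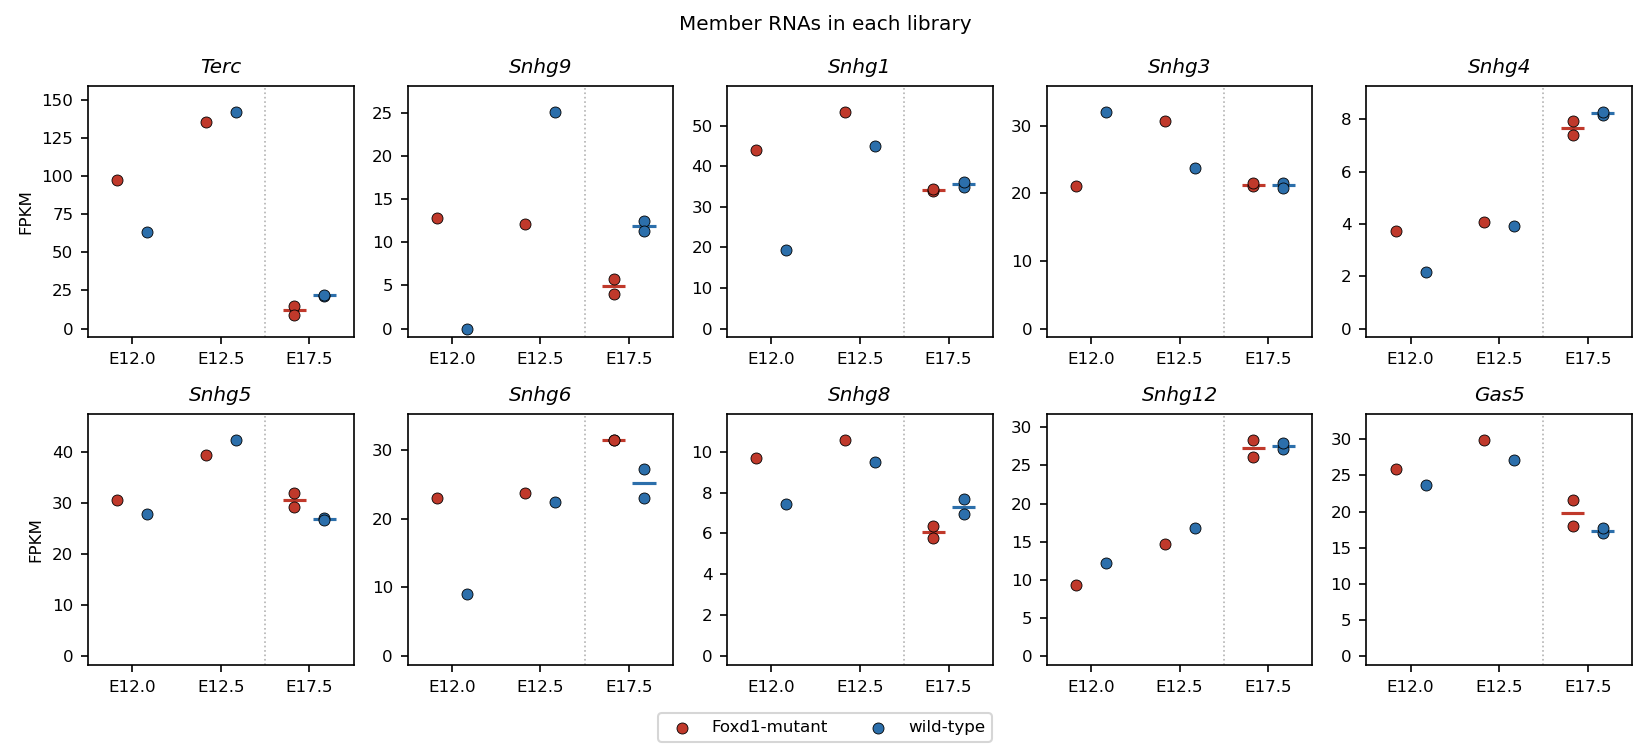
FPKM of the 10 members in each of the 8 libraries, with mutant left of wild-type at each stage, points for libraries and horizontal bars for the mean of 2 libraries at E17.5. The dotted line separates stages whose tables were made separately. Snhg9 and Terc have both E17.5 mutant points below both wild-type points, and Snhg9 is listed at 0 in the E12.0 wild-type library.

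At the early stages Snhg9 and Terc had no such order. At E12.0 Snhg9 had 12.8 FPKM in the mutant library and was listed at 0 in the wild-type library, so no ratio is given. At E12.5 it had 12.1 FPKM in the mutant and 25.1 FPKM in the wild-type library, a ratio of 0.481 and a log2 difference of -0.998. The mutant library was thus the higher at E12.0 and the lower at E12.5. The value of 0 stands in a library where other short RNAs were also missing. Of 29 small RNA genes that reached 10 FPKM in each of the other early libraries, 10 were listed at 0 in the E12.0 wild-type library. The same count was 0 of 19 in the E12.0 mutant, 1 of 20 in the E12.5 mutant and 0 of 19 in the E12.5 wild-type library. Among 5682 genes outside the small RNA class at that level, Snhg9 included, 4 were listed at 0 in the E12.0 wild-type library.

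Terc was the most abundant member, per unit of length, in all 4 early libraries. It had 97.4 FPKM in the mutant and 63.4 FPKM in the wild-type library at E12.0, and 135 FPKM in the mutant and 142 FPKM in the wild-type library at E12.5. The log2 difference was 0.61 for E12.0 and -0.07 for E12.5, so the mutant library was the higher in the earlier pair alone. Among genes at 1 FPKM or more, Terc stood at percentiles 95.35 in the mutant and 92.8 in the wild-type library at E12.0, then 95.9 in the mutant and 96.0 in the wild-type library of E12.5. At E17.5 it stood at percentiles 58.1 and 41.2 in mutant and 68.7 and 69.5 in wild-type libraries. Because the E12 tables list genes and the E17.5 tables list transcripts, the stages were described and not tested against each other.

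Among the remaining hosts of H/ACA snoRNAs, Snhg8, the host of Snora24, had 5.78 and 6.38 FPKM in mutant and 7.68 and 6.95 FPKM in wild-type libraries at E17.5. The genotypes did not overlap, and the log2 difference was -0.23 (standard error 0.0814). At the early stages the order was the opposite, with 9.70 FPKM in the mutant and 7.42 FPKM in the wild-type library at E12.0, and 10.6 and 9.48 FPKM at E12.5. Snhg4, the host of Snora74a, had 7.93 and 7.43 FPKM in mutant and 8.19 and 8.29 FPKM in wild-type libraries at E17.5. Its mutant values were both the lower by a small margin, a log2 difference of -0.09 (standard error 0.0647). Its early values were 3.72 FPKM in the mutant and 2.16 FPKM in the wild-type library at E12.0, and 4.08 and 3.91 FPKM at E12.5, with the mutant library the higher at both.

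Snhg3, the host of both Snora73 snoRNAs, had 21.1 and 21.5 FPKM in mutant and 21.6 and 20.9 FPKM in wild-type libraries at E17.5. These values overlapped, and the log2 difference was 0.01 (standard error 0.0524). Its early values crossed over, at 21.0 FPKM in the mutant and 32.0 FPKM in the wild-type library at E12.0, and at 30.7 and 23.7 FPKM at E12.5. Snhg12, the host of Snora16a, Snora44, Snora61 and Snord99, had 26.1 and 28.4 FPKM in mutant and 27.2 and 27.98 FPKM in wild-type libraries at E17.5. These also overlapped, and the log2 difference was -0.02 (standard error 0.0603). It was the only member lower in the mutant library at both early stages, with 9.39 FPKM in the mutant and 12.3 FPKM in the wild-type library at E12.0, and 14.7 and 16.9 FPKM at E12.5.

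The other hosts carry box C/D snoRNAs, the class that guides ribose methylation. Snhg1, whose introns hold Snord22 and its neighbours, had 34.02 and 34.4 FPKM in mutant and 35.03 and 36.1 FPKM in wild-type libraries at E17.5. Its log2 difference was -0.05 (standard error 0.0490), with the mutant values just below the wild-type values. At E12.0 it had 44.0 FPKM in the mutant and 19.4 FPKM in the wild-type library, a log2 difference of 1.14, and at E12.5 it had 53.5 and 45.1 FPKM, a difference of 0.24. Snhg6, the host of Snord87, had 31.4 and 31.5 FPKM in mutant and 27.2 and 23.0 FPKM in wild-type libraries at E17.5. Both mutant values were the higher, a ratio of means of 1.25 and a log2 difference of 0.32 (standard error 0.0842), which was 0.20 without wild-type replicate 2. Snhg6 had 22.9 FPKM in the mutant and 9.08 FPKM in the wild-type library at E12.0, a log2 difference of 1.25, and 23.7 and 22.4 FPKM at E12.5, a difference of 0.08.

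Snhg5, the host of the Snord50 snoRNAs, had 29.3 and 31.9 FPKM in mutant and 27.0 and 26.6 FPKM in wild-type libraries at E17.5. Both mutant values were the higher, with a log2 difference of 0.18 (standard error 0.0599). At E12.0 it had 30.5 FPKM in the mutant and 27.8 FPKM in the wild-type library, and at E12.5 39.3 and 42.4 FPKM, so the early order was mixed. Gas5, whose introns hold Snord44, Snord47 and further box C/D snoRNAs and whose spliced RNA accumulates in cells that stop growing, had 17.98 and 21.6 FPKM in mutant and 17.04 and 17.7 FPKM in wild-type libraries at E17.5. Its log2 difference was 0.17 (standard error 0.0916), and it was 0.30 without mutant replicate 1 and 0.05 without mutant replicate 2. Gas5 had 25.9 FPKM in the mutant and 23.7 FPKM in the wild-type library at E12.0, and 29.9 and 27.1 FPKM at E12.5. Its values in mutant libraries were above those in wild-type libraries at all 3 stages, as were those of Snhg6, by margins that at E17.5 depend on the library.

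**Figure D2:**
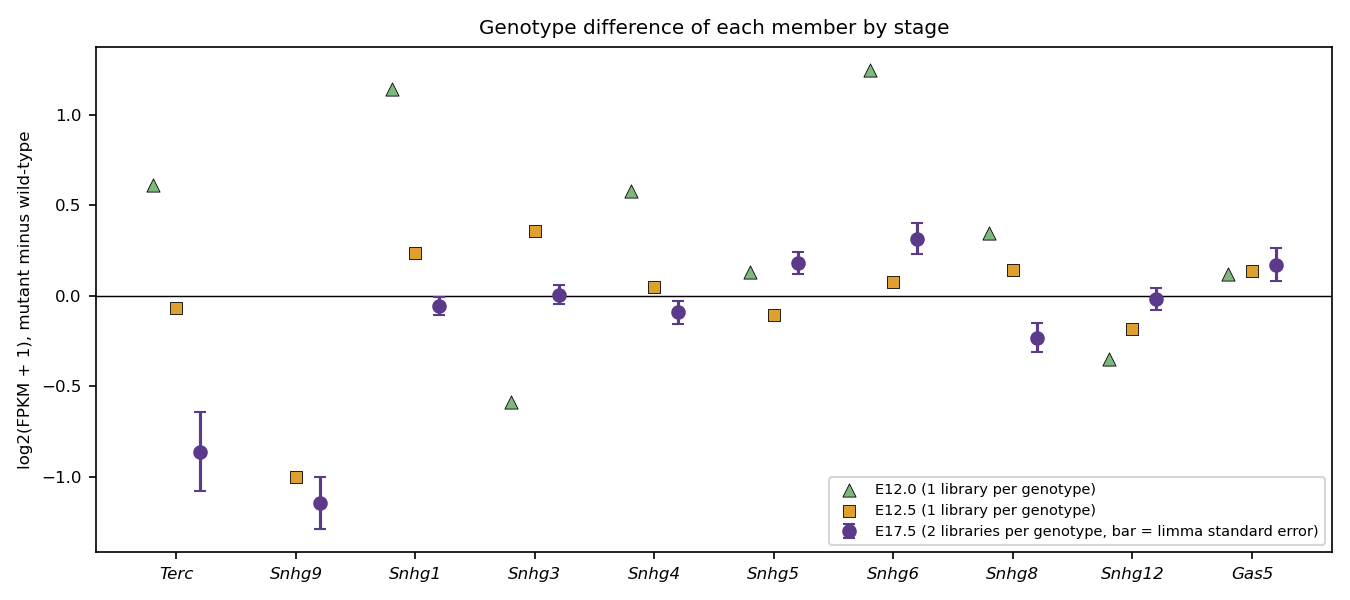
Genotype difference of each member as log2(FPKM + 1), mutant minus wild-type, at E12.0 and E12.5 (1 library per genotype, no error) and at E17.5 (bars are the standard error, 2 libraries per genotype). Snhg9 has no E12.0 point because it is listed at 0 in the wild-type library. The E17.5 values run from -1.15 for Snhg9 to 0.32 for Snhg6.

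Counted together, 5 members (Snhg1, Snhg4, Snhg8, Snhg9 and Terc) had both mutant values below both wild-type values at E17.5, where 22.2% of all genes tested did. Another 3 (Snhg5, Snhg6 and Gas5) had both above, where 20.9% of all genes did, and Snhg3 and Snhg12 overlapped. At E12, 5 members (Snhg1, Snhg4, Snhg6, Snhg8 and Gas5) were higher in the mutant library at both stages, where 25.9% of all genes were. Snhg12 was lower at both, where 21.8% of all genes were, and the other 4 were mixed. By limma, 0 of 10 members passed an adjusted p of 0.05 at E17.5, where 0.00756% of genes did (1 of 13235), and 5 had an unadjusted p below 0.05. At E12, with stage as a block, 0 of 10 passed, where 0.0335% of genes did (4 of 11952), and 1 had an unadjusted p below 0.05. Over all genes, 755 had an unadjusted p below 0.05 at E17.5 and 168 at E12. These contrasts chose the members, so their tests support nothing and nothing is read from the counts. The median log2 difference of the members at E17.5 was -0.04, beside 0.003 over all genes tested.

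**Figure D3:**
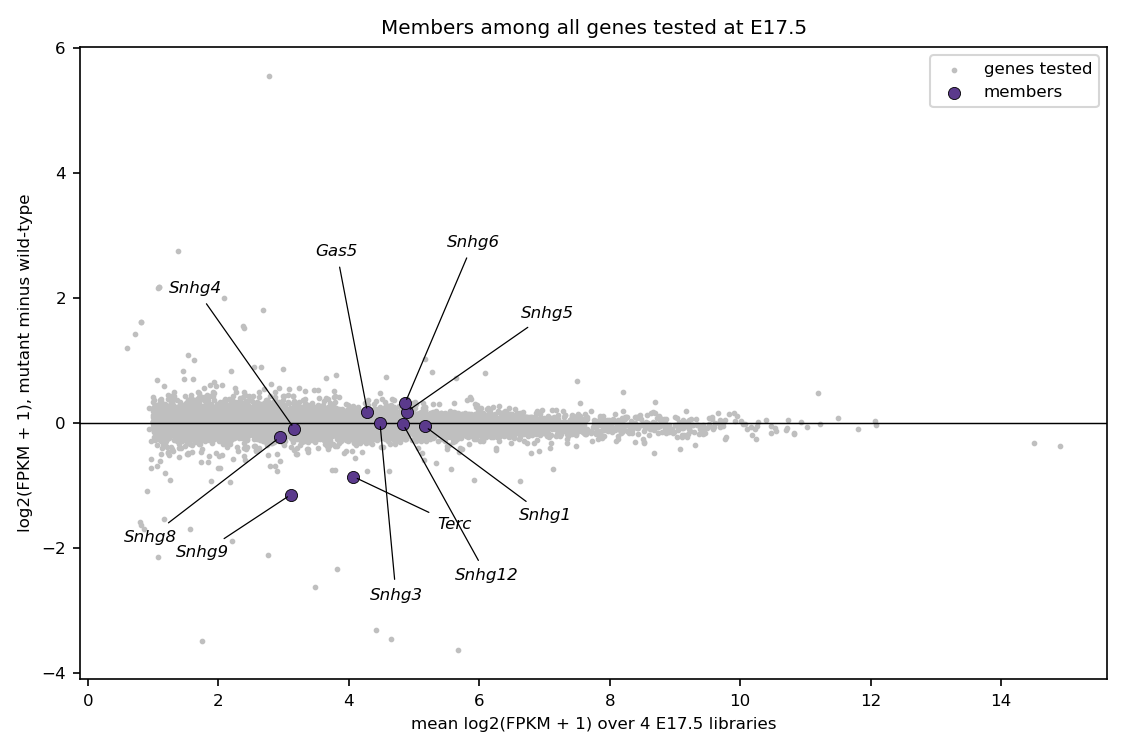
Log2 difference at E17.5, mutant minus wild-type, against mean log2(FPKM + 1) over 4 libraries, with a grey point for each of the 13235 genes tested and a filled circle for each member. Snhg9 and Terc lie below the grey band of genes of like level, and the other 8 members lie within it.

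The order of the members by level differed between the stages. At E17.5 Snhg1 led in both genotypes, at 34.2 ± 0.276 FPKM in mutant and 35.6 ± 0.762 FPKM in wild-type tissue (SD, n = 2 each). In mutant tissue it was followed by Snhg6, Snhg5, Snhg12, Snhg3, Gas5, Terc, Snhg4, Snhg8 and Snhg9. The values of Snhg6 and Snhg5 overlapped there, as did those of Snhg3 and Gas5. In wild-type tissue the order was Snhg1, Snhg12, Snhg5, Snhg6, Terc, Snhg3, Gas5, Snhg9, Snhg4 and Snhg8. The values of Snhg6 overlapped with those of Snhg5 and Snhg12 there, and those of Terc with those of Snhg3. Snhg9 was thus the lowest member in mutant tissue and stood above Snhg4 and Snhg8 in wild-type tissue.

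The snoRNAs made from these hosts were measured only in part. GENCODE places 29 snoRNA copies with 27 names within the host genes (an entry named as a microRNA is not counted), and 10 snoRNAs of these hosts were listed by symbol in a table. At E17.5 the filter on low values left 5 of them, and by limma none passed the adjusted threshold, while 1 had an unadjusted p below 0.05. Snora78, the snoRNA of Snhg9, had 152 and 68.9 FPKM in mutant libraries, against 154.5 and 127.5 FPKM in wild-type libraries, a log2 difference of -0.45 (standard error 0.349, limma adjusted p = 0.704). The genotypes overlapped, since mutant replicate 1 lay between the wild-type values, while spliced Snhg9 was lower in both mutant libraries. At E12.0 Snora78 had 142 FPKM in the mutant and 27.4 FPKM in the wild-type library, in which Snhg9 was listed at 0, and at E12.5 it had 137 and 179 FPKM.

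Of the other snoRNAs tested, Snora74a, Snora44 and Snord22 were lowest in mutant replicate 2. Snora74a, of Snhg4, had 626 and 350.1 FPKM in mutant and 632 and 622 FPKM in wild-type libraries at E17.5. Snora44, of Snhg12, had 740 and 160 FPKM in mutant and 416 and 559 FPKM in wild-type libraries. Snord22, of Snhg1, had 2210 and 826.5 FPKM in mutant and 1179 and 1946 FPKM in wild-type libraries. For Snora44 and Snord22 the mutant libraries lay on either side of both wild-type libraries. Snora16a, also of Snhg12, was low throughout, at 8.53 and 6.62 FPKM in mutant libraries and at 0 and 3.55 FPKM in wild-type libraries. Over the 54 small RNA genes tested at E17.5 the median log2 difference was -0.10, and none passed the adjusted threshold (7 had an unadjusted p below 0.05).

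Because FPKM tables can divide reads between genes that share bases, overlaps were looked up in the annotation. Of the 183 exonic bases of Snhg9, 14 are shared with Rps2, a ribosomal protein gene on the other strand. Rps2 had 776.5 and 718 FPKM in mutant libraries, against 797 and 793 FPKM in wild-type libraries, a log2 difference of -0.09 (limma adjusted p = 0.697). Snhg9 came to 0.517% and 0.796% of the Rps2 level in mutant libraries and to 1.56% and 1.43% in wild-type libraries. Snhg3 shares 135 of 986 exonic bases with Rcc1 on the same strand, and Snhg6 shares 127 of 1146 with Mcmdc2 on the other. Whether the libraries kept strand is not given in the sources used here, so reads of those shared bases cannot be assigned with certainty.

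Protein-coding genes beside or across the members showed no genotype difference that passed the test. Of 21 such genes, 14 were tested at E17.5, and by limma 0 passed the adjusted threshold and 0 had an unadjusted p below 0.05. Their log2 differences ran from -0.12 for Rcc1, a chromatin-bound exchange factor for Ran, to 0.16 for the kinase gene Sgk3. Beside Snhg9, Ndufb10, a subunit of mitochondrial complex I, had a log2 difference of -0.06. Beside Terc, Fcgr1 was between 0.392 and 0.440 FPKM in the E17.5 libraries and was not tested. At E12, 12 were tested and 0 passed the adjusted threshold or had an unadjusted p below 0.05.

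Promoter windows from RefSeq (GRCm38.p6, 250 bases before to 50 after the annotated start) were found for 7 of the 10 members, without Snhg4, Snhg6 and Terc. They gave 8 windows, since Gas5 has more than 1. The window of Snhg9 is printed because this host had the lowest ratio at E17.5; it spans chr17:24719916-24720215 on the minus strand and reads 5′ to 3′ along the gene. The capitals mark TATAAA on the strand shown, which lies after the annotated start, within the spliced RNA printed above.
Snhg9 promoter window: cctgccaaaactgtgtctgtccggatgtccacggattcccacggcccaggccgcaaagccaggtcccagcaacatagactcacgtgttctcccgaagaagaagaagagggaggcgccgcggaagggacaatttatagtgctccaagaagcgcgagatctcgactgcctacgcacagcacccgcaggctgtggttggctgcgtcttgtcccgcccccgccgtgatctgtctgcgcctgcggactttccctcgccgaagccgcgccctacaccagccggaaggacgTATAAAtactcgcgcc
Searched on both strands, TATAAA was in 5 of the 8 member windows (Snhg1, Snhg3, Snhg5, Snhg8 and Snhg9), and in 13.6% of all 32851 windows. CCAAT was in 3 of 8 and in 37.4% of all. The letters CACGTG were in the Snhg9 window alone among the 8, and in 7.15% of all, and TGACGTCA was in a Gas5 window and in 1.79% of all. TGTTTAC, letters that forkhead factors are known to bind, were in 0 of 8 and in 3.65% of all. These are matches of letters and say nothing about binding.

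No gene for a telomerase or shelterin protein passed the test. All 18 genes of a telomerase and shelterin list were tested at E17.5, with 9 higher and 9 lower in mutant tissue and a median log2 difference of 0.01. By limma 0 passed the adjusted threshold, and 0 had an unadjusted p below 0.05. Tert, the catalytic subunit, had 2.68 and 2.48 FPKM in mutant libraries, against 2.42 and 2.17 FPKM in wild-type libraries, a log2 difference of 0.12. Dkc1, the dyskerin that holds H/ACA RNAs, differed by 0.06. The widest differences were 0.12 for Terf1, which binds telomere repeats, and -0.15 for Nop10, an H/ACA core protein. At E12, 12 of the 18 were higher and 6 lower, none passed, and 1 had an unadjusted p below 0.05. The widest there were 0.42 for Tinf2, a shelterin subunit, and -0.28 for Gar1, an H/ACA core protein.

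Among other RNAs that are, like Terc, short, structured and not polyadenylated, Rmrp and Rpph1 were lowest in mutant replicate 2 at E17.5. Rmrp, the RNA of the mitochondrial RNA processing endonuclease, had 26700 and 16060 FPKM in mutant and 25940 and 25980 FPKM in wild-type libraries, a log2 difference of -0.33 (standard error 0.254). Rpph1, the RNA of RNase P, had 35130 and 20940 FPKM in mutant and 36880 and 33350 FPKM in wild-type libraries, a difference of -0.37. In both, mutant replicate 1 lay above at least 1 wild-type library, and replicate 2 lay below the other 3. Rnu12, of the minor spliceosome, differed by 0.24. By limma 0 of these 3 passed the adjusted threshold, and 0 had an unadjusted p below 0.05. For Terc, which was chosen with its low E17.5 values known, mutant replicate 1 was also below both wild-type libraries. The part of these values in the Terc difference was not tested.

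Other host genes were spread around 0 at E17.5. Of 11 further noncoding hosts on the list, 5 were tested, with 2 higher and 3 lower and a median log2 difference of -0.15. By limma 0 passed the adjusted threshold, and 1 had an unadjusted p below 0.05. That gene, Snhg18, had 2.92 and 2.91 FPKM in mutant and 2.13 and 1.99 FPKM in wild-type libraries, a log2 difference of 0.36, and the lowest was Snhg10 at -0.21. Of 29 protein-coding hosts tested, 15 were higher and 14 lower, with a median of 0.005 and the highest value, 0.18, for Taf1d, a factor of RNA polymerase I. None passed, and 0 had an unadjusted p below 0.05. At E12, 25 of the 29 were higher and 4 lower, with a median of 0.15 beside 0.009 over all genes tested, of which 6244 of 11952 were higher. Again none passed, and 0 had an unadjusted p below 0.05. Of the 10 proliferation markers, 10 were higher at E12 (median 0.23) and 10 were higher at E17.5 (median 0.17). Their summed levels at E12.0 were 530.1 FPKM in the mutant and 444.5 FPKM in the wild-type library. At E12.5 they were 471 FPKM in the mutant and 415 FPKM in the wild-type library. Of 8 pan-neuronal markers, such as Dcx and Map2, 7 were lower (median -0.16). Their sums were 1208 FPKM in the mutant and 1206 FPKM in the wild-type library at E12.0, then 1838 in the mutant and 2008 FPKM in the wild-type library of E12.5. Of the markers tested at E12, 6 of 9 for hypothalamus, 5 of 5 of the telencephalon set, 3 of 5 for endothelium, 3 of 3 for meninges and 2 of 3 for red blood cells were lower. The part of these values in the early differences of the hosts was not tested. The widest at E12 was the ribosomal protein gene Rpl13a at 0.76, with 1255 FPKM in the mutant and 411 FPKM in the wild-type library at E12.0 and 722 and 771 FPKM at E12.5. The lowest was Ncl, nucleolin, at -0.22.

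Factors that assemble box C/D particles and factors of nonsense-mediated decay did not pass the test. Of 9 box C/D proteins and assembly factors tested at E17.5, 5 were higher and 4 lower, with a median of 0.005, from -0.16 for the assembly factor Znhit3 to 0.12 for the core protein Nop58. By limma 0 passed, and 1 had an unadjusted p below 0.05. Of 14 nonsense-mediated decay factors, 9 were higher and 5 lower, with a median of 0.03, from -0.12 for Smg9 to 0.19 for Upf2. By limma 0 passed, and 2 had an unadjusted p below 0.05. At E12 the widest differences were 0.29 for Rpap3 and -0.32 for Fbl, the methyltransferase fibrillarin, among box C/D factors. Among decay factors they were 0.27 for Upf3a and -0.27 for Casc3, and 0 genes of both lists passed or had an unadjusted p below 0.05.

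**Figure D4:**
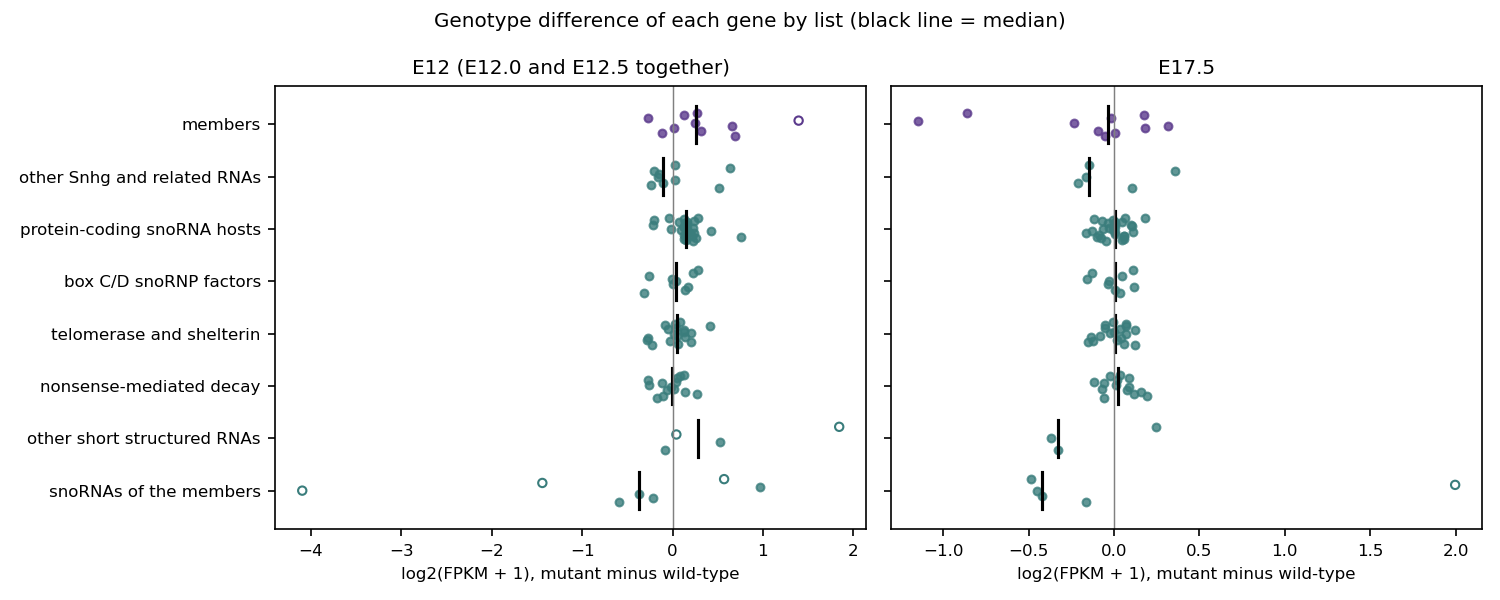
Log2 difference of each tested gene, mutant minus wild-type, by list, at E12 (left) and E17.5 (right), with a black line at the list median. Open circles are genes listed at 0 in at least 1 library of the comparison. At E17.5 Snhg9 and Terc lie to the left of every gene in the other lists shown.

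The genes most like 3 of the members across libraries were ranked by Pearson's r of log2(FPKM + 1), centred within each stage, over 8 libraries and 11831 genes. For Terc these were Tbc1d10b (r = 0.995), Psap (0.992) and Mlc1 (0.992), and 306 genes reached 0.9. For Snhg9 they were Ubl3 (0.997), Cfl2 (0.993) and Rgl2 (0.988), with 548 genes at 0.9 or more, and for Gas5 they were Clip1, Fam98a and Rfwd2 (0.994 each), with 310. The Snhg9 profile is widest at E12.0, where the wild-type library lists it at 0. Without both E12.0 libraries, an alternative chosen after seeing the data, r over 6 libraries was 0.984, 0.964 and 0.943 for these 3 genes, and for those of Terc and Gas5 it stayed between 0.991 and 0.994. Tbc1d10b moved over a far smaller range than Terc, with 22.9 and 20.9 FPKM in mutant and 24.2 and 24.4 FPKM in wild-type libraries at E17.5. The values share libraries and depth, and the r are a description of 8 libraries in 3 stages.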

How the data were processed

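The authors deposited 1 table of FPKM values per library, made with TopHat and Cufflinks on mouse build mm9, per the submitters' processing notes, which name no versions. Per the labels, RNA was extracted with the RNeasy kit and sequenced paired-end on a HiSeq 2500. Rows of a symbol were summed. A gene entered a comparison where its libraries averaged 1 FPKM or more, and was tested on log2(FPKM + 1), computed here from the deposited FPKM with a pseudocount of 1. The test was limma (two-sided, its prior variance following mean level), adjusted by Benjamini-Hochberg over all genes tested, with a threshold of 0.05. The fit at E17.5 used 4 libraries and left 2 residual degrees of freedom. The fit at E12 used the 4 libraries of E12.0 and E12.5 with stage as a block and left 1, so its spread is the disagreement of the genotype difference between these stages. Nothing says that pools came from separate litters, so p-values measure the spread between these libraries.

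The members and the 9 pathway and 7 marker lists were chosen with earlier results of these data known. Named genes followed a rule: every member, Foxd1, the highest and lowest log2 difference of each pathway list, the protein-coding genes nearest to each member, and the 3 genes most like Terc, Snhg9 and Gas5. Tert and Dkc1, and the snoRNAs of the members, were named beside it after their values were seen. Some genes of the lists are not reported here. Depth was estimated from transcripts over 2500 bases, with 170 bases taken off for the fragment, from the FPKM that 1 fragment is worth. Of low values, 79.4% to 81.6% in E17.5 libraries and 31.7% to 41.6% in E12 libraries came out whole within 0.1. The alternatives changed the pseudocount, filter, scaling, trend, joining of rows, blocks and libraries. Fits were also run on simulated data. The outcome is not reported here, so the threshold should not be taken as checked. Software was limma 3.58.1 in R 4.3.3, and pandas 2.3.3, numpy 2.4.6 and matplotlib 3.10.9 in Python 3.11.15.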

Additional observations from a re-analysis of the deposited data

Results flagged for a closer look

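For 3 members every mutant library lay above its wild-type counterpart at both early stages and below both wild-type libraries at E17.5, which is what marked them for a closer look. The difference between the stages was not tested, because the tables of the stages were made separately. Snhg1 had a log2 difference, mutant minus wild-type, of 0.69 (standard error 0.235) over the E12 libraries and of -0.054 (0.0490) at E17.5. Snhg4 had 0.31 (0.195) at E12 and -0.091 (0.0647) at E17.5. Snhg8 had 0.245 (0.139) at E12 and -0.23 (0.0814) at E17.5. The early differences of Snhg1 and Snhg4 came mostly from E12.0, at 1.14 and 0.58, beside 0.24 and 0.05 at E12.5.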

How the results depend on the processing

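At E17.5, over 13 alternatives, Snhg9 stayed between -1.36 and -0.78 (log2, mutant minus wild-type; the value nearest to 0 with a pseudocount of 5) and Terc between -1.22 and -0.50. Snhg3 and Snhg12 changed sign, within -0.07 to 0.04, and the other members did not. The count of genes past the threshold moved from 1 to 0 with no filter, to 0 with a filter at 5 FPKM and to 16 with the replicate block. Leaving out each library gave 1 to 44 genes, with 44 without mutant replicate 1, 10 without mutant replicate 2 and 4 without wild-type replicate 1. Whether replicate numbers pair libraries of the genotypes is not given in the sources used here. The deviations of the libraries numbered 1 correlated at 0.028 over 13235 genes, a single value that cannot settle it. With fewer samples a lone library is assumed to vary like the others. Members with a log2 difference below 0 were 6, and 5 to 7 without each library. At E12, over 14 alternatives, the count of 4 genes became 1 with a pseudocount of 5, no filter, quantile normalization or no trend, and 2 with small RNA genes left out. It became 78 without the stage block, 661 with the spread of all 8 libraries, and 55 to 2595 without each library. Leaving out an early library leaves the genotype difference of the other early stage alone. The spread of the main fit, the disagreement between these stages, cannot be had from a single stage. The counts without each library therefore come from a different model and are not comparable with the count of 4. Members below 0 were 2, and 2 to 4 without each library. Without either E12.0 library, Terc (-0.07), Snhg9 (-0.998), Snhg5 (-0.11) and Snhg3 (0.36) changed sign. Snhg5 also did with small RNA genes left out (-0.03). The cause was not tested. FPKM without counts, and 1 library per genotype early, limit all these values.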
